A study of Mus musculus with 9 samples.

Results

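T and NK cell transcripts were followed in bulk RNA-seq libraries of pre-cDCs, the committed precursors of conventional dendritic cells (cDCs). The list holds 39 of the 51912 genes in the count table, looked up by symbol. These genes were chosen because they are known from T cells, NK cells or both and because earlier results of these data showed them with many counts in spleen libraries and few in BM libraries. Their level in spleen against BM is therefore a description here, and calls in that comparison follow from the choice of genes and support nothing, whereas the comparison of genotypes within BM was not used to choose them. By their usual expression, 13 of the genes belong mainly to T cells, 7 mainly to NK cells and 19 to both.

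The cells came from mixed BM chimeras, made by lethal irradiation of CD45.1/2 recipients and a graft of BM from WT CD45.1 and DNGR-1 KO CD45.2 donors in equal parts, and were taken 16 weeks after transplantation without further treatment. DNGR-1 KO donors were Clec9aCre/Cre, an allele with Cre inserted into Clec9a, the gene of the dead cell receptor DNGR-1. WT and DNGR-1 KO cells shared irradiated hosts, whose own cells carry both CD45 alleles. There were 3 WT BM, 3 DNGR-1 KO BM, 1 WT spleen and 2 DNGR-1 KO spleen samples, each pooled from 2 mice. The paper's total of mice is smaller than separate pools would need, so pools share mice, and the labels do not say which. The labels of WT samples disagree on the CD45 allele, naming CD45.1 as the source and CD45.2 in the description.

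T cells recognise antigen through a receptor made of alpha and beta, or gamma and delta, chains, which signals through the CD3 proteins and the CD247 chain to the kinases Lck and Zap70. NK cells lack this receptor, but share with cytotoxic T cells a set of lectin-like receptors, granzymes, perforin and the beta chain of the interleukin 2 receptor. cDCs and their precursors are defined in part by the absence of these lineages. The study's gates for BM and spleen populations leave out cells stained by a lineage cocktail, and CD3 and NK1.1, the product of Klrb1c, are among its targets. In a bulk library, more cells of a type and more RNA per cell cannot be told apart.

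Promoter windows show where these genes start and which short motifs of lymphoid factors lie there, and are printed for the 3 CD3 genes, which were high together in every spleen library, and for 3 NK receptor genes, of which Klrc1 was high in every spleen library and Klrb1c and Ncr1 were not. Each window of 300 bases runs from 250 before to 50 after a RefSeq start on GRCm38.p6 and is written on the strand of the gene. Capitals mark matches on either strand to 5 motifs. RUNX factors are represented by the letters TGTGGT, and the family of Gata3 by AGATAA. For Tcf7 and Lef1 the letters searched were CTTTGA. The family of Ets1 is known for sites around AGGAAG, and the T-box factors Tbx21 and Eomes for sites around AGGTGTGA. The windows are chr9:44980382-44980681 on the minus strand for Cd3g, chr9:44981536-44981835 on the plus strand for Cd3d, chr9:45009562-45009861 on the minus strand for Cd3e, chr6:129678924-129679223 on the minus strand for Klrc1, chr6:128788592-128788891 on the minus strand for Klrb1c and chr7:4337465-4337764 on the plus strand for Ncr1.
Cd3g: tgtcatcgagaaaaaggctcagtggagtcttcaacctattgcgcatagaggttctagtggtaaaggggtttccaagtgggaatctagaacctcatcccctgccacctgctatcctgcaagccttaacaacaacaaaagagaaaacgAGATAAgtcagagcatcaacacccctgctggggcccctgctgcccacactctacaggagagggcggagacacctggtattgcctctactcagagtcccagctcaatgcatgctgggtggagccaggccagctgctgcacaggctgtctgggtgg
Cd3d: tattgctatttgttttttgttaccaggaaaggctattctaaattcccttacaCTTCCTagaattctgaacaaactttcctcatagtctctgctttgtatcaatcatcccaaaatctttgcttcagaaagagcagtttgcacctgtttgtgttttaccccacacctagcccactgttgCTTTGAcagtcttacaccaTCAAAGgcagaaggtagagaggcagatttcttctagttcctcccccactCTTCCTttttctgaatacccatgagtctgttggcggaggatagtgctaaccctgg
Cd3e: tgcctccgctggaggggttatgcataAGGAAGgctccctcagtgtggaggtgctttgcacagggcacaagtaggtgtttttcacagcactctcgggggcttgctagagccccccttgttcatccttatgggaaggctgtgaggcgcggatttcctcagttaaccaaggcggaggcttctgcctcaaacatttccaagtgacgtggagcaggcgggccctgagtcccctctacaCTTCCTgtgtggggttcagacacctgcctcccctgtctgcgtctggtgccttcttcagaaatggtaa
Klrc1: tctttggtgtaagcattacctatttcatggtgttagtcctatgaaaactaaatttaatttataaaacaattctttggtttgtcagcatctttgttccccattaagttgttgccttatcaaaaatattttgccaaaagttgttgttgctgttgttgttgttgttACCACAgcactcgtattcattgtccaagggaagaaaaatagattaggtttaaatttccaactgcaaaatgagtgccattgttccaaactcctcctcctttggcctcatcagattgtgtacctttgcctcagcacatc
Klrb1c: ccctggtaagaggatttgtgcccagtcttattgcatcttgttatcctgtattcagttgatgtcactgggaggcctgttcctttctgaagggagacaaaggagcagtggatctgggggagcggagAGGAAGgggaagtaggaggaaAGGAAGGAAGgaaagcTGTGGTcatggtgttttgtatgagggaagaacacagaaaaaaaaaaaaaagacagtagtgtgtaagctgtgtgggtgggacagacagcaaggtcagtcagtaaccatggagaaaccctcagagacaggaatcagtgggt
Ncr1: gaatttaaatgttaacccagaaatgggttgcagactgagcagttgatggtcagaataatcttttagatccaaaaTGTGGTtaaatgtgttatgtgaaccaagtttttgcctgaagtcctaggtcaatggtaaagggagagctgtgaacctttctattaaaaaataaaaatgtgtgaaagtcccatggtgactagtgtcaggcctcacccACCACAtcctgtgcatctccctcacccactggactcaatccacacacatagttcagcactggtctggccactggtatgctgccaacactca

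Cd3g and Cd3d point away from each other, with 1355 bases between their annotated starts, and Cd3e ends 11401 bases beyond Cd3d. The Cd3g window held a match of the Gata3 family, the Cd3d window 2 TCF/LEF and 2 ETS matches, and the Cd3e window 2 ETS matches. A RUNX match stood in each of the 3 NK receptor windows. The promoter table held 36 windows of 26 of the 39 genes. RUNX letters were in 36.1% of these windows and in 16.8% of all 32851 windows, ETS letters in 50% and 35.4%, TCF/LEF letters in 19.4% and 16%, the letters of the Gata3 family in 11.1% and 11.2%, and T-box letters in 5.56% and 1.28%. The ETS letters can overlap themselves, as they do in Klrb1c, and windows of 1 gene share sequence.

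Total counts were 17457317 to 20938524 in BM and 17103806 to 23722298 in spleen, so 3 counts, the floor used here, stood for 0.126 to 0.175 CPM (counts scaled to a common library total). More than 3 counts were found for 13577 to 15052 genes in BM libraries, 10813 in WT spleen and 12135 and 12064 in DNGR-1 KO spleen samples 1 and 2. Clec9a, the targeted gene, had 905, 1574 and 1766 counts in WT BM, 1 count in each DNGR-1 KO BM sample, 2459 counts in WT spleen and 0 in both DNGR-1 KO spleen samples. Flt3, the receptor that drives cDC precursors, had 4736 to 11117 counts in BM and 10009, 9679 and 8346 in WT spleen and DNGR-1 KO spleen samples 1 and 2, and Itgax and Zbtb46, further defining genes of the cDC lineage, were over the floor in all 9 libraries. The 20 cDC and pre-cDC genes summed to 5127.3 to 14290.5 CPM in BM and to 18911, 42711 and 12058 CPM in WT spleen and DNGR-1 KO spleen samples 1 and 2. The largest values in these spleen sums were those of the MHC class II presentation genes Cd74 (8203, 20168 and 5468 CPM), H2-Ab1 (3381, 10465 and 2181 CPM) and H2-Aa (2830, 7301 and 1650 CPM). The sums therefore follow these genes and do not measure cDC content. Zbtb46, at 22.0, 26.7 and 7.84 CPM, and Clec10a, at 45.9, 59.7 and 8.85 CPM, were lowest in sample 2, whereas Itgax was at 157, 224 and 219 CPM and Sirpa, a cDC2 marker, at 49.9, 59.0 and 155 CPM. Summed counts of the 4 Y-linked genes Ddx3y, Eif2s3y, Kdm5d and Uty were 0 in WT spleen, 1193 and 1807 in DNGR-1 KO spleen, 341, 9 and 0 in DNGR-1 KO BM samples 1 to 3, and at most 1 in WT BM, so in spleen the genotypes and the presence of Y-linked reads coincide and their effects cannot be told apart.

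The 39 transcripts together made up 73.5 to 157 CPM (normalized by the trimmed mean of M values, TMM) in the 6 BM libraries. They made up 3015 CPM in WT spleen, 4286 CPM in DNGR-1 KO spleen sample 1 and 11770 CPM in DNGR-1 KO spleen sample 2. All 3 spleen libraries were thus far above all BM libraries, and they also differed among themselves. In WT spleen 35 of the 39 genes were above every BM library, against 22.3% of the 18109 genes with over 3 counts in some library. In DNGR-1 KO spleen sample 1 all 39 were above every BM library (24.3% of genes), and in sample 2 there were 38 (25.3%). In all 3 spleen libraries at once there were 35, against 7% of genes. With edgeR's quasi-likelihood test over the 9 samples and genotype as a covariate, 36 of the 37 genes that passed the filter on low counts had an adjusted p under 0.05 and were higher in spleen, against 7.28% of 13468 genes, and these counts follow from how the list was made. Cd4 was not called, and Klrb1c and Ncr1 were removed by the filter. The median log2 difference between spleen and BM was 8.99 over the 37 genes and -0.18 over all genes tested.

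**Figure D1:**
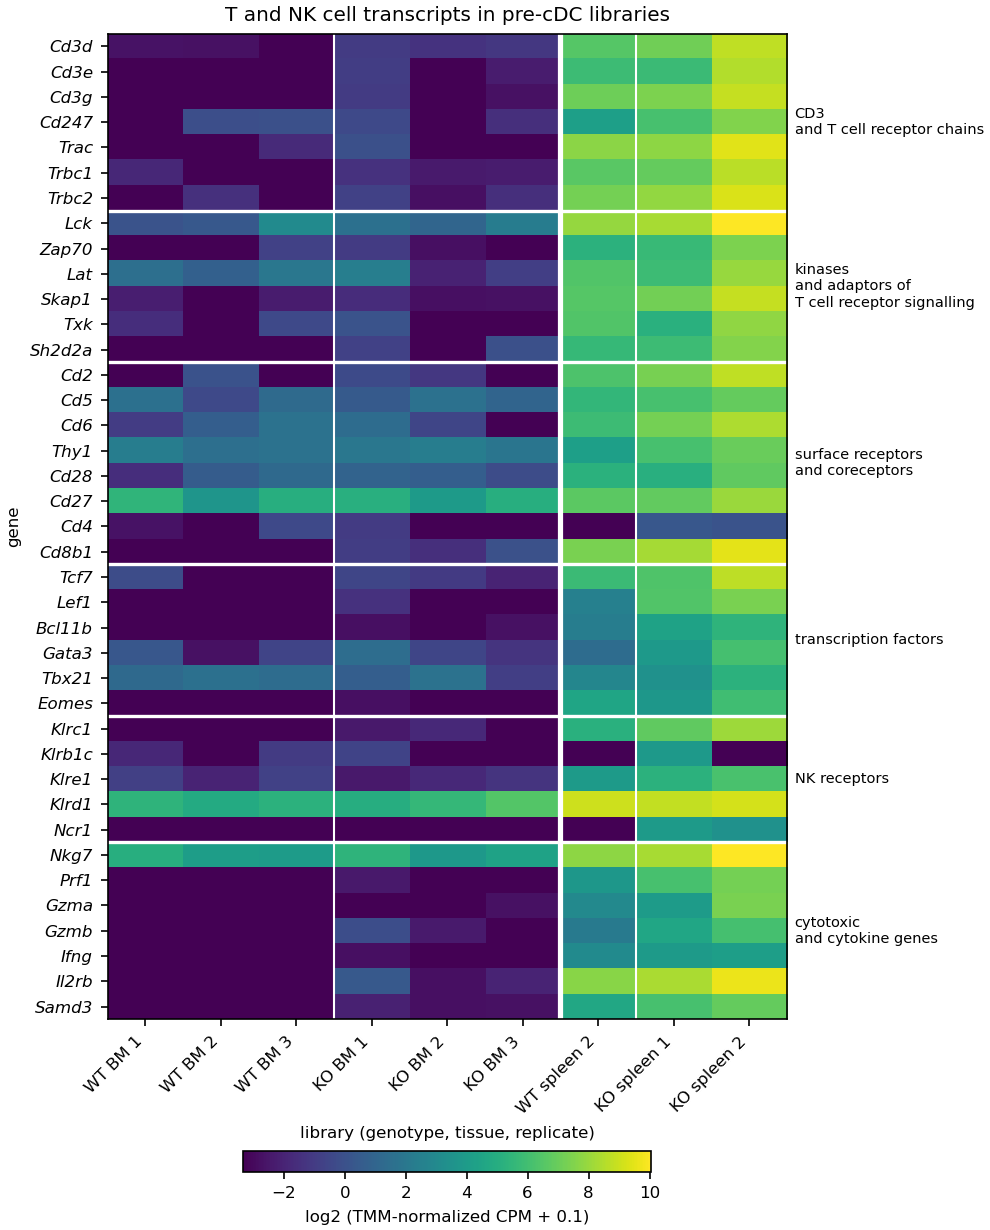
Heat map of the 39 T and NK cell genes (rows, in role groups) in the 9 libraries (columns), coloured by log2 of TMM-normalized CPM plus 0.1. The 3 spleen columns are bright for most genes, Cd4, Klrb1c and Ncr1 being the exceptions, and Cd27, Klrd1 and Nkg7 are the genes with the highest values in the BM columns.

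All 7 genes of the CD3 complex and the T cell receptor chains had at most 19 counts in a BM library and were high in every spleen library. Trac, the constant region of the alpha chain, had 0, 0 and 4 counts in WT BM and 19, 0 and 0 in DNGR-1 KO BM, but 3579 in WT spleen and 3926 and 16453 in DNGR-1 KO spleen samples 1 and 2. That is 213, 220 and 697 CPM in the 3 spleen libraries, and a log2 difference between tissues of 10.82 (SE 0.95). The lowest spleen library was far above the highest BM library, and DNGR-1 KO spleen sample 1 lay next to WT rather than next to sample 2. Trbc2, a constant region of the beta chain, was at 151, 239 and 625 CPM in WT spleen and DNGR-1 KO spleen samples 1 and 2, against 0 to 11 counts in BM, a log2 difference of 10.62 (SE 0.68). Its near-identical copy Trbc1 was at 101, 118 and 401 CPM, and reads shared by these copies could have been divided between them. Per kilobase of exon, Trbc2 was the second highest of the 39 genes in both DNGR-1 KO spleen libraries.

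Of the CD3 chains, which carry the receptor's signal into the cell, Cd3g was at 135, 173 and 472 CPM in WT spleen and DNGR-1 KO spleen samples 1 and 2. Cd3d followed with 91.7, 145 and 430 CPM, and Cd3e with 56.9, 55.8 and 365 CPM. In BM Cd3e had 0 counts in all WT samples and 10, 0 and 2 counts in DNGR-1 KO samples, and Cd3d had 0 to 1 and 6 to 9 counts. Per kilobase of exon, the order Cd3d, Cd3g, Cd3e held in each spleen library, although the share of Cd3e varied, with a ratio of Cd3e to Cd3d of 0.276, 0.172 and 0.378. Cd247, the zeta chain that NK cells use too, was the lowest of the group per kilobase, at 18.3, 71.8 and 186 CPM before the division by length, and it is overlapped on the other strand by Pou2f1, whose mean count in spleen was 15.0% of its own.

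The rearranged receptor could be followed through the variable (V) segments, which were not on the list. Of 144 annotated V segments of the alpha, beta, gamma and delta chains, 47 had over 3 counts in WT spleen, 68 in DNGR-1 KO spleen sample 1 and 94 in sample 2. Their summed counts were 2430, 3293 and 11220 in these libraries and 5 to 22 in BM libraries, where 2 segments passed 3 counts in any library. The V segments thus set the spleen libraries in the same order as the constant regions did. In all 3 spleen libraries 15 of 22 beta and 16 of 108 alpha segments were over 3 counts, so that many segments were in use in each library. The most used beta segment was Trbv12-2 in WT spleen, with 12.1% of beta V counts (95% Wilson interval 10.4 to 14.0%), and Trbv12-1 in DNGR-1 KO spleen samples 1 and 2, with 13.6% (12.1 to 15.2%) and 17% (16.2 to 17.9%). These intervals cover counting error only, and counts of similar segments could have been divided between them. Trdc, the delta constant region, had 0, 218 and 892 counts in WT spleen and DNGR-1 KO spleen samples 1 and 2. Its per-kilobase ratio to Trac was 0.0134 and 0.0131 in the DNGR-1 KO libraries. Gamma chain counts did not follow Trdc, since the gamma V segments summed to 179, 131 and 468 counts in the same order of libraries. The gamma constant regions Tcrg-C1, Tcrg-C2 and Tcrg-C4 had 45, 266 and 131 counts in WT spleen.

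**Figure D2:**
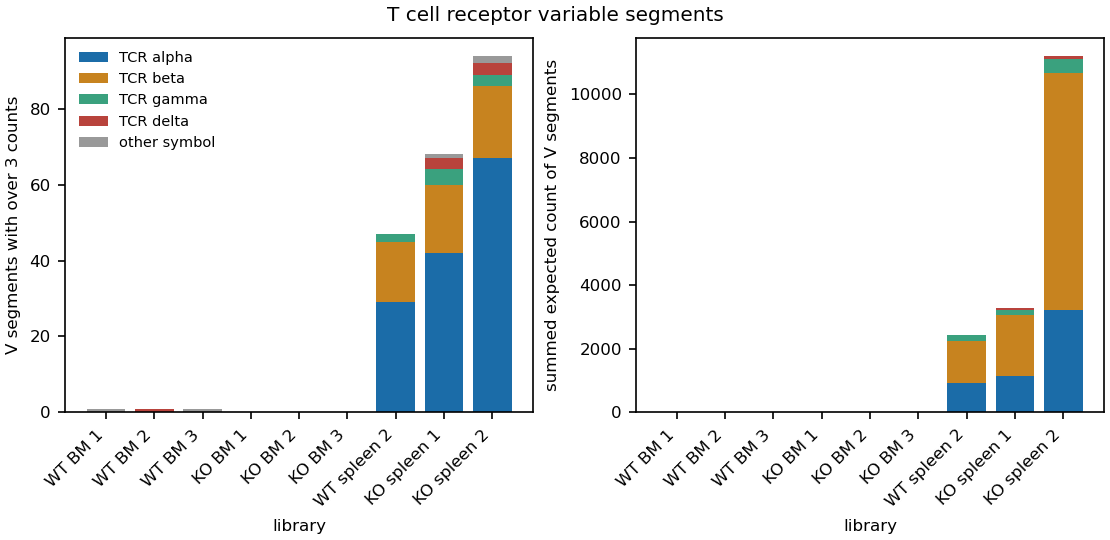
Stacked bars give, for each library, the number of T cell receptor V segments with over 3 counts (left) and their summed expected counts (right), by chain, with segments under another symbol in grey. The 3 spleen libraries hold 47, 68 and 94 segments, mostly of the alpha and beta chains, and the BM libraries at most 1 each.

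The 6 kinases and adaptors downstream of the T cell receptor followed the receptor genes in spleen, but some had counts in BM. Lck, the kinase that phosphorylates CD3 and CD247, had 16, 23 and 165 counts in WT BM and 67, 40 and 96 in DNGR-1 KO BM. It was at 242, 315 and 1060 CPM in WT spleen and DNGR-1 KO spleen samples 1 and 2, with a log2 difference between tissues of 7.17 (SE 0.80). Skap1, an adaptor that links the receptor to integrins, had at most 5 counts in a BM library and was at 92.3, 145 and 462 CPM in spleen (log2 difference 10.95, SE 0.62). Zap70, the kinase recruited to phosphorylated CD3, was at 37.9, 51.9 and 173 CPM. The remaining 3 did not all keep this order. Lat, the adaptor phosphorylated by Zap70, was at 86.3, 56.6 and 257 CPM and Txk, a Tec family kinase, at 85.6, 36.0 and 228 CPM, so both were lowest in DNGR-1 KO spleen sample 1. Sh2d2a, an adaptor that binds Lck, was at 49.9, 56.6 and 190 CPM.

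Among the 8 surface receptors, the coreceptors divided sharply. Cd8b1, the beta chain of CD8, had 0 counts in all WT BM samples and 10, 5 and 18 in DNGR-1 KO BM, and 2768, 5361 and 17280 counts in WT spleen and DNGR-1 KO spleen samples 1 and 2. At 165, 301 and 732 CPM its log2 difference between tissues was 10.54 (SE 0.65). Cd4 had 0, 20 and 23 counts in the same spleen libraries and 0 to 13 in BM. Every spleen library thus held CD8 and almost no Cd4 transcript, and the per-kilobase ratio of Cd4 to Cd8b1 was at most 0.00137. Cd8a, which cDC1s also express and which was not on the list, had 4135, 6268 and 12051 counts in spleen, and the per-kilobase ratio of Cd8b1 to Cd8a was 1.64, 2.10 and 3.52. Foxp3, the factor of regulatory T cells, had at most 1 count in a spleen library, and Cd40lg, the CD40 ligand of helper T cells, at most 2.

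The other surface receptors were present in every spleen library. Cd2, an adhesion receptor of T and NK cells, was at 78.6, 160 and 434 CPM in WT spleen and DNGR-1 KO spleen samples 1 and 2 (log2 difference between tissues 9.05, SE 1.05). Cd6 was at 58.1, 152 and 341 CPM and Cd5, a related scavenger receptor that dampens T cell receptor signalling, at 46.7, 71.2 and 118 CPM. Cd28, the costimulatory receptor for CD80 and CD86, was at 37.1, 34.2 and 110 CPM. Cd27, a TNF receptor family member that early progenitors carry too, had 236 to 725 counts in WT BM and 320 to 785 in DNGR-1 KO BM, and its 102, 114 and 266 CPM in spleen were a log2 difference of 2.42 (SE 0.47). It is overlapped by Vamp1 on the other strand, whose mean count in spleen was 19.6% of its own. Thy1, which marks T cells in mice, had 55 to 84 counts in WT BM and 70 to 101 in DNGR-1 KO BM, and was at 18.3, 70.9 and 127 CPM in spleen.

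The 6 transcription factors together reached 31.4, 55.4 and 230 CPM per kilobase in WT spleen and DNGR-1 KO spleen samples 1 and 2, below the sums of 689, 898 and 2690 of the 7 CD3 and T cell receptor genes. Tcf7, which acts early in T cell development and in naive and memory T cells, was at 55.5, 84.0 and 415 CPM in the same libraries (log2 difference between tissues 8.82, SE 0.98). Its relative Lef1 was at 5.60, 85.2 and 163 CPM (10.24, SE 0.90). Bcl11b, required for T cell commitment, was at 5.003, 20.4 and 41.5 CPM. WT spleen thus held little Lef1 and Bcl11b while its Tcf7 was closer to that of DNGR-1 KO spleen sample 1. Gata3 was at 2.56, 14.5 and 68.9 CPM, and in WT spleen it did not exceed every BM library, DNGR-1 KO BM sample 1 being at 2.68 CPM. Tbx21 and Eomes, the T-box factors of cytotoxic cells, were at 6.91, 10.8 and 38.3 CPM and at 23.0, 13.2 and 62.6 CPM.

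The 5 NK receptors behaved unequally. Klrd1 (CD94), which pairs with NKG2 proteins, had 693, 563 and 754 counts in WT BM and 710, 996 and 1747 in DNGR-1 KO BM. In spleen it was at 517, 455 and 579 CPM in WT and DNGR-1 KO samples 1 and 2, a log2 difference between tissues of 3.46 (SE 0.30). It was thus the gene with the highest value per kilobase in WT spleen and in DNGR-1 KO spleen sample 1, and it did not follow the order of the T cell genes. Klrc1 (NKG2A), its partner, had 0 counts in WT BM and at most 4 in DNGR-1 KO BM, and was at 35.6, 110 and 274 CPM in spleen (11.09, SE 0.66). Klre1 was at 15.3, 38.9 and 75.3 CPM. Klrb1c (NK1.1), a target of the lineage cocktail, had 0, 266 and 0 counts in WT spleen and DNGR-1 KO spleen samples 1 and 2, and 0 to 12 in BM, and Gm44511, which overlaps it, had 18.0% of its mean count in spleen. Ncr1 (NKp46), the receptor that marks NK cells in mice, had 0, 281 and 253 counts in the same libraries and 0 in all BM libraries. Klrb1c and Ncr1 were therefore both at 0 in WT spleen, where the 19 genes shared with T cells ran from 2.56 CPM (Gata3) to 242 CPM (Lck). A count of 0 there allows up to 0.179 CPM (3 counts, TMM-normalized). Klrb1c was at 0 in DNGR-1 KO spleen sample 2 too, and some further NK and cytotoxic genes, given below, were highest in WT spleen. Klrc1, Klrb1c, Klre1 and Klrd1 lie on chromosome 6 between 128778485 and 129678973 of GRCm38, within 0.62 Mb of Clec9a, the targeted gene.

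All 7 cytotoxic and cytokine genes were higher in every spleen library than in any BM library. Nkg7, a granule protein, had 558, 336 and 316 counts in WT BM and 919, 290 and 410 in DNGR-1 KO BM. Its 222, 310 and 1046 CPM in WT spleen and DNGR-1 KO spleen samples 1 and 2 gave a log2 difference of 4.26 (SE 0.53), and it had the highest value per kilobase in DNGR-1 KO spleen sample 2. Il2rb, the beta chain of the receptors for interleukins 2 and 15, had 0 counts in all WT BM samples and 28, 1 and 3 in DNGR-1 KO BM, and was at 202, 328 and 798 CPM in spleen (10.77, SE 0.87). Per kilobase, the effector genes were below Il2rb in each spleen library. Prf1 (perforin) was at 13.6, 72 and 153 CPM, Gzma at 7.68, 16.1 and 164 CPM and Gzmb at 4.23, 24.4 and 69.3 CPM. Ifng, the gene of interferon gamma, was at 8.22, 15.3 and 18.1 CPM, and Samd3 at 26.2, 70.5 and 119 CPM.

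**Figure D3:**
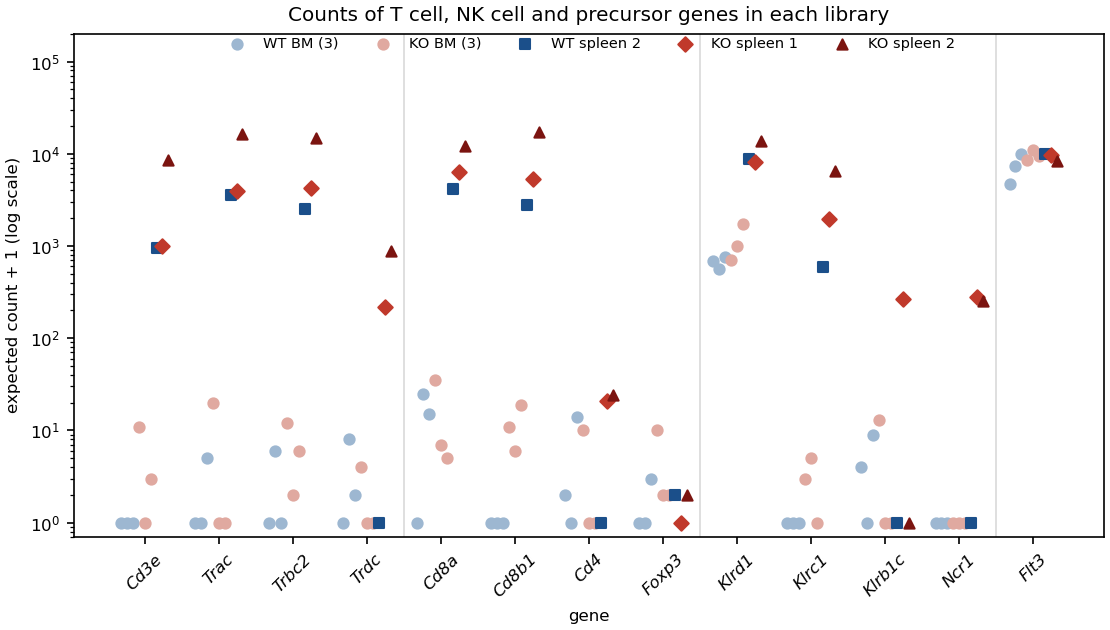
Expected counts plus 1 (log scale) of T cell receptor genes, coreceptors, Foxp3, NK receptors and Flt3 in the 9 libraries, with WT BM in light blue, DNGR-1 KO BM in light red and the 3 spleen libraries in dark symbols. Cd8a and Cd8b1 have from 2768 to 17280 counts in every spleen library while Cd4 is at 0, 20 and 23, and Klrb1c and Ncr1 are at 0 in WT spleen.

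Within BM the genotypes could be compared with replicates on both sides. Of the 39 genes, 12 passed the filter on low counts (Cd247, Lck, Lat, Cd5, Cd6, Thy1, Cd28, Cd27, Gata3, Tbx21, Klrd1 and Nkg7), and the other 27, among them all CD3 and T cell receptor genes except Cd247, had too few counts. The test of DNGR-1 KO against WT BM called none of the 12 (edgeR's quasi-likelihood test, 0 called, 0 at an unadjusted p under 0.05, and 0 called by DESeq2 or limma-voom), against 0.0307% of 13016 genes called. The lowest adjusted p was 0.861, 6 genes had positive and 6 negative differences, and the median log2 difference was -0.016 over the 12 and -0.0045 over all genes. Klrd1 was at 36.3 ± 6.35 CPM (SD, n = 3 samples) in WT BM and 56.0 ± 28.6 CPM (SD, n = 3) in DNGR-1 KO BM. The log2 difference of 0.62 (SE 0.36) lay within the spread of these samples (edgeR adjusted p = 0.861), and the values overlapped, with DNGR-1 KO BM sample 1 below 2 of the 3 WT samples. Gata3 differed by 1.03 (SE 1.12, edgeR adjusted p = 0.885), and it was higher in DNGR-1 KO BM sample 1, at 60 counts, than in the other BM samples, which had 1 to 19. Without DNGR-1 KO BM sample 1 the Gata3 difference was -0.38. Tbx21 differed by -0.59 (SE 0.71), Cd247 by -0.87 (SE 1.40) and Cd6 by -0.71 (SE 1.25), and all 3 ranges overlapped between genotypes.

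The few counts of these genes in BM were not spread evenly over the libraries. DNGR-1 KO BM sample 1 had a count for 37 of the 39 genes and over 3 counts for 30, against 16 to 25 and 13 to 18 genes in the other 5 BM samples. Of the 15 genes at 0 in all 3 WT BM samples, Cd3e, Cd3g, Cd8b1 and Il2rb had 10, 9, 10 and 28 counts in this library. It also held the most genes with a count, 18122, and the most Y-linked counts of the BM libraries. At most 28 of 20938524 counts stood behind each of these 4 genes, and no fold between genotypes is given for them.

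Within spleen the genotype comparison rested on 1 WT sample, which the model assumed to vary like the other groups, and the same spleen values had served to choose the genes. In the fit of 4 groups all 37 genes tested had higher fitted values in DNGR-1 KO spleen, with a median log2 difference of 1.65 against 0.13 over all genes. Thy1 alone passed the threshold (edgeR), 1 of 37 against 8.37% of 13468 genes called higher. Its values of 18.3, 70.9 and 127 CPM gave a log2 difference of 2.44 (SE 0.61). At an unadjusted p under 0.05 (edgeR) there were 6 of the 37 genes, against a larger share of all genes, 3294 of 13468. Besides Thy1 these were Lef1 (4.47, SE 1.35), Prf1 (3.05, SE 0.96), Samd3 (1.86, SE 0.66), Klrc1 (2.43, SE 0.88) and Cd3d (1.65, SE 0.64). For Klrd1 the difference was 0.0025 (SE 0.53). DESeq2 called 4 genes, Gata3, Klrc1, Prf1 and Thy1, against 2106 of all 13468 genes called higher. With limma-voom 0 were called, and only 2 of all genes were called higher. A fit of the 3 spleen samples alone called 0 of all 13218 genes, so its 0 for the list says nothing about these genes. At an unadjusted p under 0.05 (edgeR) that fit had 11 genes of the list and 1099 of all genes. A replicate block left 0 genes of the list called, against 695 of all genes called higher, with Thy1 at an edgeR adjusted p of 0.104. Leaving out WT BM sample 2 or 3 or DNGR-1 KO BM sample 2 or 3 gave 0 calls. The fit that lacked DNGR-1 KO BM sample 1 gave 1, Lef1 in place of Thy1. When a BM sample was left out, 882 to 1046 of all genes were called higher. Fits without a DNGR-1 KO spleen sample had 1 spleen sample of each genotype, so no conclusion is drawn from their calls. Over all leave-out fits, these included, the Thy1 difference ran from 1.95 to 2.81. The difference of genotype effects between tissues passed the threshold for 0 of 37 genes with edgeR, against 8.85% of all genes. At an unadjusted p under 0.05 (edgeR) there were 3 of the 37, against 3001 of all 13468 genes. DESeq2 called Cd8b1 and Thy1, against 1692 genes higher and 498 lower over all genes. With limma-voom 0 of all genes were called. With edgeR it also passed for 0 genes of the list in each fit that lacked a BM sample.

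Most of the difference within spleen came from DNGR-1 KO spleen sample 2. Over the 36 genes with more than 3 counts in both libraries, the ratio of TMM-normalized CPM to WT spleen had a median of 4.62 in sample 2, with 35 genes over 1.5-fold and 0 below 1. In DNGR-1 KO spleen sample 1 the median ratio was 1.57, with 22 genes over 1.5-fold and 6 below 1, namely Cd3e, Lat, Txk, Cd28, Eomes and Klrd1. Over all genes the median ratios were 0.997 and 1.005, and 29.6% and 27.3% were over 1.5-fold. The replicates of one genotype therefore differed more than sample 1 differed from WT, with a median ratio of sample 2 to sample 1 of 2.72 over 38 genes. In all, 36 of the 39 genes were highest in sample 2, and 30 stood in the order WT spleen, DNGR-1 KO spleen sample 1, DNGR-1 KO spleen sample 2.

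**Figure D4:**
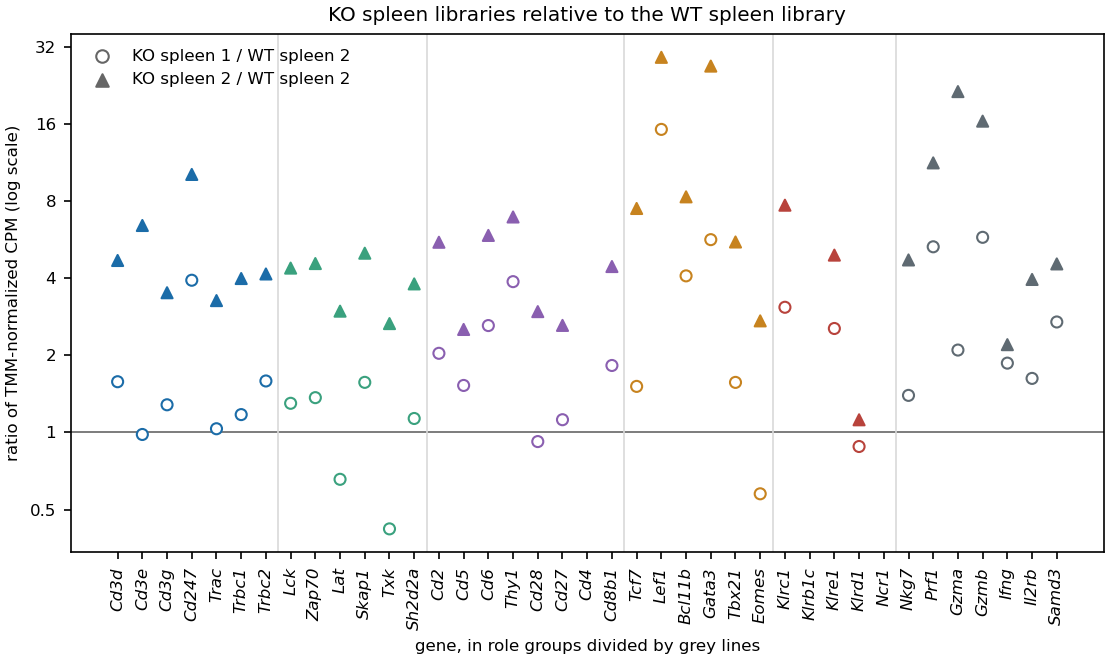
Ratio of TMM-normalized CPM in each DNGR-1 KO spleen library to the WT spleen library (log scale) for each gene, with open circles for sample 1 and filled triangles for sample 2, coloured by role group; Cd4, Klrb1c and Ncr1 have no ratio because WT spleen was at 0. All triangles lie above 1, from 1.12 for Klrd1 to 29.1 for Lef1, and the circles run from 0.42 for Txk to 15.2 for Lef1.

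By role, the median ratio of sample 2 to WT spleen ran from 4.08 to 7.88, without Cd4, Klrb1c and Ncr1. It was 4.15 for the 7 CD3 and T cell receptor genes, 4.08 for the 6 kinases and adaptors, 4.44 for 7 surface receptors, 7.88 for the 6 transcription factors, 4.92 for 3 NK receptors, which ranged from 1.12 to 7.71, and 4.71 for the 7 cytotoxic and cytokine genes. In sample 1 these medians were 1.28, 1.21, 1.82, 2.53, 2.54 and 2.10, so the T cell receptor genes and their kinases were closest to WT there. By usual expression, the genes of T cells, of both and of NK cells had median ratios of 4.29, 4.71 and 4.92 in sample 2 and of 1.55, 1.57 and 2.10 in sample 1. Among the genes with over 3 counts in WT spleen, the largest ratios were those of Lef1 (15.2 and 29.1 in samples 1 and 2), Gata3 (5.65 and 26.9), Gzma (2.10 and 21.4) and Gzmb (5.77 and 16.4), all genes below 8 CPM in WT spleen. Against 3 counts in the WT spleen library, where they were at 0, Ncr1 was at least 88.3-fold and 60.0-fold higher in samples 1 and 2, Klrb1c at least 83.5-fold higher in sample 1, and Cd4 at least 6.28-fold and 5.45-fold higher in samples 1 and 2. Set against the precursors' own Flt3, the per-kilobase ratio of Cd3d was 0.523, 0.906 and 4.14 in WT spleen and DNGR-1 KO spleen samples 1 and 2.

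Further T and NK cell genes were high in the same libraries. These lists too were chosen with earlier results of these data known, so their calls between tissues are a description and no support. Of 22 other T cell genes 16 were tested, and 13 were called higher in spleen than in BM, against 7.28% of all 13468 genes. Themis, which acts in thymocyte selection, was at 0 counts in all BM libraries and at 537, 1205 and 1412 counts in WT spleen and DNGR-1 KO spleen samples 1 and 2. Il7r, the receptor for a survival cytokine of T cells, had 18 to 111 counts in BM and 1508, 2678 and 8068 in spleen. Of 28 further NK and cytotoxic genes 20 were tested, 13 being higher in spleen and 1, Styk1, lower. Ccl5, a chemokine of cytotoxic cells, had 6296, 11012 and 35623 counts in spleen. In BM it had 1, 1 and 0 counts in WT and 50, 14 and 43 in DNGR-1 KO samples, ranges that did not overlap, and the log2 difference of 5.31 (SE 1.11) was not called (edgeR adjusted p = 0.861). The Ly49 receptor genes were unequal. Klra7, Klra8 and Klra9 had 0 counts in WT spleen, 139, 442 and 99 in DNGR-1 KO spleen sample 1 and 671, 92 and 357 in sample 2, whereas Klra3 had 358 counts in WT spleen and 184 and 241 in DNGR-1 KO spleen. Other genes of this NK and cytotoxic list were unequal too. S1pr5 had 1055, 182 and 435 counts in WT spleen and DNGR-1 KO spleen samples 1 and 2, and Xcl1 had 1471, 1044 and 1035. Cd244a had 4203, 2524 and 1898 counts and Il12rb2 1374, 276 and 94, so these were highest in WT spleen. Gzmm, with 268, 920 and 3364 counts, was lowest there, as was Ccl5. In spleen DNGR-1 KO against WT, 2 of the 16 T cell genes (Ubash3a and Satb1) and 1 of the 20 NK genes (Klrb1f) were called higher, against 8.37% of all genes. Ubash3a and Klrb1f were at 0 counts in the single WT spleen library. Reads of the Klra and Klrb1 families could have been divided between their similar members.

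Markers of other cell types, in lists also chosen with earlier results known, moved between the same libraries. Over all 13468 genes tested, 980 were called higher and 1651 lower in spleen than in BM. Of 8 erythroid genes 5 were higher in spleen, the 4 globins and Alas2, while Klf1 and Epor were lower, and the summed level of the 8 was 123 to 722 CPM in BM, 8733 in WT spleen and 50883 and 16164 in DNGR-1 KO spleen samples 1 and 2. Of 13 monocyte and macrophage genes tested 6 were higher in spleen, and the genes of this list did not move together among the spleen libraries. Vcam1, C1qa, C1qb and Spic were highest in DNGR-1 KO spleen sample 2, Vcam1 with 229, 460 and 5102 counts and C1qa with 74, 507 and 2236 in WT spleen and DNGR-1 KO spleen samples 1 and 2. Adgre1 (F4/80), at 124, 67.2 and 69.5 CPM, and Csf1r, at 680, 237 and 319 CPM, were highest in WT spleen, and Fcgr1, at 11.3, 12.5 and 5.12 CPM, was lowest in sample 2. The 14 genes of the list summed to 2892 to 5175 CPM in BM and 6230, 3585 and 4611 CPM in the 3 spleen libraries. Of 9 neutrophil genes tested 8 were lower in spleen, with summed levels of 863 to 2773 CPM in BM and at most 1.06 CPM in spleen. The 15 B lineage genes summed to 948 to 1490 CPM in BM and 803 to 1139 CPM in spleen. Of 12 innate lymphoid cell genes 5 were tested, Klrg1 being higher and Il17rb lower in spleen, and Il5, Il13, Il17a and Il22 were at 0 in all spleen libraries. Of 11 plasmacytoid DC genes tested 2, Runx2 and Cox6a2, were lower in spleen, and the list's sum was 780 to 1251 CPM in spleen and 1031 to 1398 CPM in BM. The part of any of these cells in the levels of the T and NK cell genes was not tested.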

How the data were processed

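For 9 samples of sorted pre-cDCs the authors deposited expected counts of each gene without normalization, and log2-scale values after DESeq2's variance stabilizing transformation. The submitters' processing notes name Trimmomatic 0.36, STAR 2.5.2, RSEM 1.3.0, DESeq2 1.18.1, R 3.4.3 and GRCm38; the annotation and strand setting are not given in the sources used here. Per the labels, ribosomal RNA was depleted from total RNA. Counting by RSEM can divide reads between similar genes, and 14 of the 39 genes are overlapped by another annotated gene.

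The 39 genes and the other gene lists were chosen with earlier results of these data known. Symbols and exon lengths came from GENCODE M21 (51719 of 51912 identifiers matched). Expected counts were rounded, and then tested with the quasi-likelihood method of edgeR 4.0.16 under R 4.3.3, after filterByExpr and TMM scaling, with p adjusted by Benjamini-Hochberg over all genes tested and a threshold of 0.05. Genotypes in BM were compared over 6 samples, tissues over 9 with genotype as a covariate, and genotypes in spleen in a fit of 4 groups. The SE of a log2 difference came from the F statistic. DESeq2 1.42.0, limma 3.58.1 (voom), other normalization and filters, sample subsets, a replicate block and leaving out each sample were alternatives. Folds against 0 are lower bounds against 3 counts in the library at 0. Log2 differences are named for the 2 genes of each role with the highest spleen CPM, the 5 lowest unadjusted p in BM and the 6 lowest in the spleen genotype comparison; other differences in counts are given as values, and genes outside the list, Ccl5 among them, were named after their values were seen. Depths of 17103806 to 23722298 counts put the floor of 3 counts at 0.126 to 0.175 CPM. Some single genes are not reported here. Fits were tested on simulated counts. Samples were grouped by genotype and tissue in their labels. P-values measure the spread between pools of 2 mice. The paper gives 6 mice in total, too few for 9 separate pools, so pools share mice, which the main fits treat as independent.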

Additional observations from a re-analysis of the deposited data

How the results depend on the processing

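Of 54 counts of called genes recomputed under alternatives, 41 stayed within 1.5 times the reported count. Of the named genes' differences and the median ratios, 311 kept direction and side of the threshold, 8 passed it newly, 9 no longer passed it and 2 changed sign. The sign changed for Cd6 in BM without WT BM sample 3 (0.12) and for Gata3 in BM without DNGR-1 KO BM sample 1 (-0.38), neither being called. When a sample was left out, the Gata3 difference in BM ran from -0.38 to 1.93 and that of Cd6 from -2.52 to 0.12. In BM the count stayed at 0 in all alternatives run. At an unadjusted p under 0.05 (edgeR) there were 4 of 38 genes with no filter on low counts, against 1107 of all 20876 genes. The fit of all 9 samples had 6 of 37, against 218 of all 13468 genes. Its filter worked by tissue, so genes with few BM counts passed it through spleen, where they had been chosen as high. Without DNGR-1 KO BM sample 1 there were 2 of 12, against 1281 of all 13362 genes. For spleen against BM the count called was 34 with the replicate block and 35 with DESeq2 or DNGR-1 KO samples only. It was 34 to 37 when a sample was left out. DESeq2 gave Lck no adjusted p, at a log2 difference of 7.25, and Lck is among the 9 above that no longer passed. For DNGR-1 KO against WT spleen the count of 1 became 4 with DESeq2, 0 with limma-voom, 2 with no filter on low counts, 0 with the replicate block, 0 with spleen samples only and 0 to 11 when a sample was left out. The top of that range came from the fit without DNGR-1 KO spleen sample 1. That fit had 1 spleen sample of each genotype, so no conclusion is drawn from its calls. With no filter on low counts, 1065 of all 21524 genes were called higher in DNGR-1 KO spleen. For the difference of genotype effects the count of 0 became 2 with DESeq2 and stayed at 0 when a BM sample was left out. The median log2 ratio of the genes to WT spleen was 0.65 in DNGR-1 KO spleen sample 1 and 2.21 in sample 2, against 0.57 and 2.23 without TMM and 0.38 and 1.76 from the deposited VST values. The cause of these changes was not tested, beyond the smaller number of samples in some fits. Same-numbered WT and DNGR-1 KO BM samples correlated at 0.105, 0.0979 and -0.0816 in their deviations from the group means, which cannot exclude shared mice. The labels do not say that the number is a pairing, so it was used only in the replicate block. With 1 WT spleen sample, values at 0 in that library rest on a single pool.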
